A study of Mus musculus with 6 samples.

Results

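Genomic imprinting makes a gene transcribed from 1 parental copy only, through DNA methylation set in the egg or the sperm at control regions and kept after fertilization. Imprinted genes lie in clusters that often pair a maternally expressed with a paternally expressed transcript, and many control fetal growth. Reprogrammed and embryonic stem cells are known to gain or lose such methylation in culture, so these genes are commonly read as a check of such lines. Levels of 46 known imprinted genes, in 20 loci, were compared between mouse induced pluripotent stem cells (iPSCs, cells reprogrammed to a state like that of the early embryo) with and without serum response factor (SRF). SRF is a transcription factor of cytoskeletal and growth factor-responsive genes. The members were chosen by gene symbol from those known to be imprinted in the mouse, among 24421 gene entries. They were selected on general knowledge, but with the differences between SRF KO and WT in these same libraries already known. The values below are therefore a description, and no p-value is given for a member.

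The SRF KO group (the knockouts below) was 3 libraries of SRFΔ/Δ iPSCs and the WT group 3 libraries of SRFf/f iPSCs, which carry the conditional allele undeleted. Both were grown in medium with serum, and the strain, the recombinase, the sex and any feeder layer are not given in the sources used here. Nothing says whether replicates are separate clones or cultures, so the spread between them may be technical. Reads of both alleles are summed, and allele-specific reads were not analysed here: the parental allele given for a gene is the one known from the mouse literature, not a measurement.

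Total counts per library lay between 26321602 and 36680156. Levels are given as CPM (counts relative to library size, scaled with TMM, a correction for library composition), and a difference as the log2 fold change of SRF KO over WT with its standard error (SE). A gene was called higher or lower at an adjusted p under 0.05 in edgeR's quasi-likelihood test over all entries. The SE was derived from that test, as the absolute log2 fold change divided by the square root of its F statistic. Srf itself held 4.20, 3.17 and 4.53 CPM in the knockouts and 36.6, 29.7 and 37.2 CPM in WT, so that the labels and the targeted gene went the same way in every library. All 8 pluripotency markers listed were detected in every library and 1 was called higher and 4 lower, with summed levels of 4614 to 4714 CPM in the knockouts and 5491 to 5938 CPM in WT. Markers of 2 other cell types were higher in SRF KO. The 12 fibroblast markers, none of them at 0, were all called higher, with summed levels of 1304 to 1593 CPM against 631 to 739.7 CPM. Of the 12 markers of primitive or visceral endoderm, 11 passed the filter on low counts, 10 were called higher and 1, Apoe, lower. Among those called higher, Ttr had 0, 0 and 0 counts in WT, Hnf4a 2, 5 and 2, and Foxa2 17, 8 and 5. These passed the filter only through SRF KO, the group where they are high. The summed levels of the 12 were 1422 to 1532 CPM against 596 to 648 CPM. Apoe alone held 479 ± 21.3 CPM in the knockouts and 580.3 ± 25.1 CPM in WT (SD, n = 3), most of the WT sum. The median log2 fold change of the 11 was 3.68. Of 5 neural markers 1 was called higher and 1 lower, at 92.1 to 96.2 CPM against 98.6 to 100.3 CPM. Beside these marker counts, 21.2% of all 14778 genes tested were called higher and 21.3% lower. The neural shares, 20% each way, lie near those. The part of these cell types in any difference below was not tested, and in bulk RNA fewer cells of a type and less RNA per cell cannot be told apart.

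Promoters of 4 members with large differences (Mcts2, Grb10, Nnat and Plagl1), and the only 2 member windows with a CArG box (the element SRF binds), are shown first. They are RefSeq sequences (GRCm38.p6, the same assembly as the mm10 build named in the submitters' processing notes), from 250 bases before to 50 bases after an annotated start, on the gene's strand. Capitals mark TGCCGC or its reverse complement GCGGCA, the hexamer that the imprint-keeping protein ZFP57 binds when methylated, and the CArG box. The 6 windows are Mcts2 at chr2:152686898-152687197 on the plus strand, 1 of 2 Grb10 windows at chr11:12037371-12037670 on the minus strand, Plagl1 at chr10:13090582-13090881 on the plus strand, Nnat at chr2:157559828-157560127 on the plus strand, 1 of 4 Igf2 windows at chr7:142661222-142661521 on the minus strand, and 1 of 2 Meg3 windows at chr12:109545148-109545447 on the plus strand. The other Grb10 window, at chr11:12027922-12028221, holds neither motif. Windows of Dlk1, Rian and Airn, which were also called with a log2 fold change of at least 1, hold neither motif and are not shown.
Mcts2: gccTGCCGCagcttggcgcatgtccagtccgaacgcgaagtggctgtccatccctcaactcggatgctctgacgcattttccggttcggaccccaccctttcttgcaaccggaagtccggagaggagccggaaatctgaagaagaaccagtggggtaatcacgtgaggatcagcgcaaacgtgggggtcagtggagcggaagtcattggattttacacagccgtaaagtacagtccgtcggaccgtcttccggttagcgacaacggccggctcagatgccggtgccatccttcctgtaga
Grb10: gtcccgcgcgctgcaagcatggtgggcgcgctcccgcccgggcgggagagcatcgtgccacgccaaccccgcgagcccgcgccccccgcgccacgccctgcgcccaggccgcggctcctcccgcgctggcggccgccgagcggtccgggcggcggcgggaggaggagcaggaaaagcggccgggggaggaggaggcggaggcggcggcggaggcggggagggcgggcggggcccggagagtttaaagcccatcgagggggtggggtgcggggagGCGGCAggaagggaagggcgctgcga
Plagl1: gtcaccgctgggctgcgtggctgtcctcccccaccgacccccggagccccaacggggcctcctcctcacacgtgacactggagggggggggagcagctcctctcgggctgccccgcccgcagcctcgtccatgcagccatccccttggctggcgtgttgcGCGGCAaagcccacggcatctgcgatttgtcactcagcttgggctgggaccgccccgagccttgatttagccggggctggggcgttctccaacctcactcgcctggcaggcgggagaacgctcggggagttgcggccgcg
Nnat: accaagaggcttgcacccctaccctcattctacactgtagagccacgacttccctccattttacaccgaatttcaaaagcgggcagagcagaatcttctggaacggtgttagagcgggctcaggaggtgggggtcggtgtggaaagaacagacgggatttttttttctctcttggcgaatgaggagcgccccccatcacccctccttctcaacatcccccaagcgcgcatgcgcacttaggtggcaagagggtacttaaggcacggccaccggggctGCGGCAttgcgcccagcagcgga
Igf2: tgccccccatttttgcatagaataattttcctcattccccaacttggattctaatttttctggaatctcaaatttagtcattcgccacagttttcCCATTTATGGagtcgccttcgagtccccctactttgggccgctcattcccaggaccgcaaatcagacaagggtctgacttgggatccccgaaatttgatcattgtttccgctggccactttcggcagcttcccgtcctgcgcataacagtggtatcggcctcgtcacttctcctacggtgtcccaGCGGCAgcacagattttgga
Meg3: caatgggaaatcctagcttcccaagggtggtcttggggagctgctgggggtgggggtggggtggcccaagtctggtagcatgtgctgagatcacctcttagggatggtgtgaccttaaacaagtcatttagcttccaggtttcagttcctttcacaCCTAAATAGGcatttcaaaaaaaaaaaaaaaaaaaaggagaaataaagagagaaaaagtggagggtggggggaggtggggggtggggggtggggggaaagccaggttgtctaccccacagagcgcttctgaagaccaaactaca

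RefSeq windows were matched for 37 of the 46 members (55 windows). The others are Cdkn1c, Dcn, H19, Impact, Kcnk9, Peg10, Peg13, Sgce and Trappc9. The hexamer TGCCGC, searched on both strands, was in 13 of the 55 windows (23.6%), against 11.6% of all 32851 windows of the same length. Windows can overlap: those of Mest at chr6:30737800-30738099 and chr6:30737803-30738102 hold the same hexamers and were counted separately. The CArG box was in 2 of the 55 (3.64%), against 1.63% of all. The 2 motifs share no base in the Igf2 window, which holds both. The member windows held a median of 14 CpG against 7 over all windows, the hexamer itself contains a CpG, and the shares were not adjusted for this. A match is a description of the letters, not a binding site.

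Of the 46 genes, 43 passed the filter on low counts, 16 were called higher in the knockouts and 12 lower. These are 37.2% and 27.9% of the 43, beside 21.2% higher and 21.3% lower among all 14778 genes tested. At a log2 fold change of at least 1 the calls were 8 higher and 2 lower, beside 5.53% and 1.76% of all genes. Among the 8, Nnat and Airn reached the filter's level, 0.364 CPM, in 3 SRF KO libraries but in 0 and 1 WT libraries. They entered the test through the group where they are high. The groups did not overlap for 31 of the 43, beside 52.7% of all genes. The median log2 fold change was 0.13, against -0.01 over all genes, and the median absolute value was 0.44 against 0.21. Because the members were proposed with this contrast known, nothing is read from these shares. Among the 23 tested genes known to be expressed from the paternal allele, 12 were called higher and 5 lower, with a median of 0.29. Among the 18 known to be expressed from the maternal allele, 4 were called higher and 6 lower, with a median of -0.07. Grb10 and Gnas, whose expressed allele depends on tissue or promoter, were counted apart. Ube3a and Dcn were counted as maternal, and Sfmbt2 and Inpp5f as paternal. Their imprinting, as given below, is limited to some tissues or isoforms, and that of other members may be limited as well. The expressed allele in these cells is not known for any member. The split above is therefore by listed allele only.

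**Figure D1:**
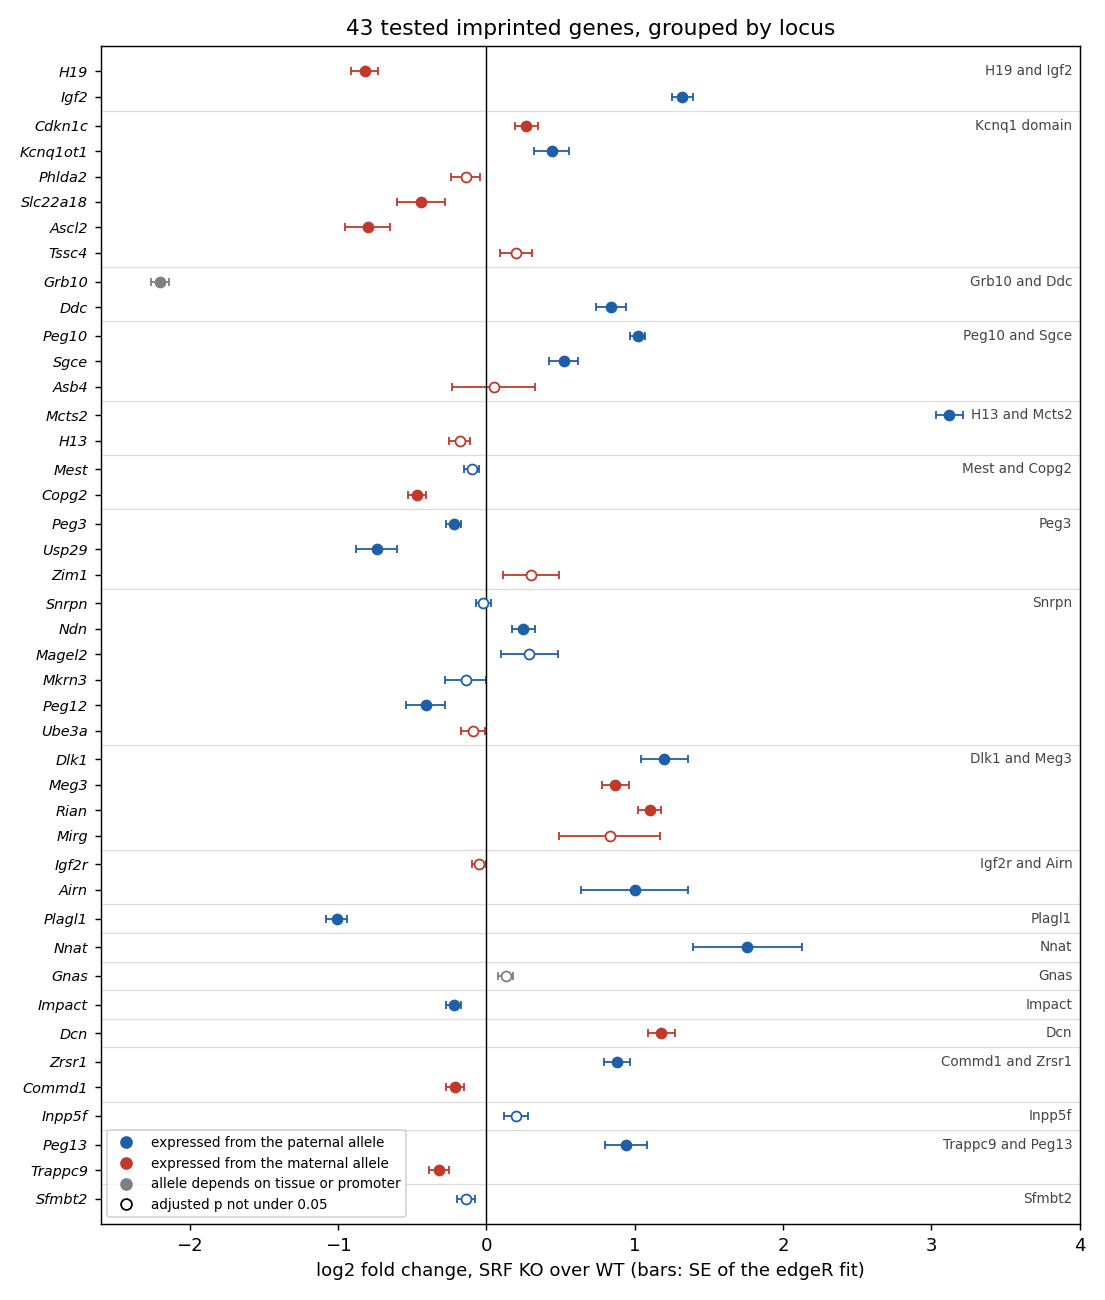
Log2 fold change of SRF KO over WT (x axis) for the 43 tested imprinted genes (y axis), grouped by locus. Colours give the expressed allele listed from the literature, not measured here. Bars are the SE derived from the edgeR test, and open circles did not pass the threshold. Mcts2 lies farthest to the right at 3.12 and Grb10 farthest to the left at -2.20, while the Peg3 and Snrpn loci lie between -0.74 and 0.30.

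The largest rise was that of Mcts2, a retrocopy of the X-linked gene Mcts1 that codes for a translation-associated protein and is transcribed from the paternal allele. It lies inside H13 (chr2:152669422-152708668, GRCm38), on the same strand, at chr2:152687148-152687946. Mcts2 had 22.9, 22.4 and 22.6 CPM in the knockout libraries and 2.71, 2.76 and 2.34 CPM in the WT libraries. The groups lay far apart, with little spread in either, and the log2 fold change was 3.12 (SE 0.09), 8.68 times the WT level. H13, the host gene, codes for signal peptide peptidase, and its full-length transcripts are known to come from the maternal allele. H13 had 42.0, 41.4 and 44.7 CPM in the knockouts and 47.9, 43.9 and 53.6 CPM in WT. These ranges overlapped, and H13 was not called (-0.18, SE 0.07), although it was called without WT replicate 2 (-0.24). The ratio of H13 to Mcts2 counts, which does not depend on library scaling, was 18.9 ± 3.66 in WT and 1.89 ± 0.0799 in SRF KO (SD, n = 3). Reads can be shared between Mcts2 and its parent gene. Mcts1 stood at 24.4 ± 2.10 CPM in the knockouts and 24.6 ± 3.43 CPM in WT (SD, n = 3) and was not called.

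Mcts2 is not the only member that lies inside another gene. By RefSeq spans 5 members lie wholly inside a protein-coding gene, all are known to be expressed from the paternal allele, and all were called higher, beside 21.2% of all genes. Nnat, 1 of the 5, entered the test only through its SRF KO libraries. None of the 4 hosts that were tested was called higher. This grouping was made after the values were seen and is a description with no test. Zrsr1, a retrocopy of the splicing factor gene Zrsr2 inside Commd1, had 30.7, 32.0 and 29.4 CPM in the knockouts and 17, 18.6 and 14.6 CPM in WT (0.88, SE 0.09). Its parent gene Zrsr2 stood at 67.2 ± 0.822 and 71.0 ± 7.74 CPM (SD, n = 3) and was not called. The host Commd1, a copper and endosomal trafficking gene, was called lower at 31.9 ± 1.69 against 36.9 ± 1.45 CPM (SD, n = 3; -0.21, SE 0.06). That call was lost without knockout replicate 1 (-0.16), knockout replicate 2 (-0.22) or WT replicate 3 (-0.19).

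Peg13, a noncoding RNA inside Trappc9, had 3.61, 4.31 and 4.29 CPM in the knockouts and 1.99, 2.10 and 2.30 CPM in WT (0.94, SE 0.14). Trappc9, which codes for a vesicle-tethering subunit, was lower, at 21 ± 0.177 CPM against 26.1 ± 1.87 CPM (SD, n = 3; -0.32, SE 0.07). The count ratio of host to nested gene was 12.3 ± 1.2 in WT and 5.21 ± 0.588 in SRF KO for Trappc9 and Peg13. It was 2.23 ± 0.310 and 1.04 ± 0.0794 for Commd1 and Zrsr1 (SD, n = 3), with no overlap for either pair. Kcnk9, a potassium channel gene beside Peg13, had 0 counts in every library, which allows up to 3 counts, or 0.0828 to 0.117 CPM.

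Nnat, which codes for a small membrane protein of the endoplasmic reticulum, lies inside Blcap on the opposite strand. It had 19, 22 and 15 counts in the knockouts and 6, 3 and 9 counts in WT, with a log2 fold change of 1.76 (SE 0.37). It reached the filter's level, 0.364 CPM, only in the SRF KO libraries, so that it entered the test through the group where it is high. Blcap stood at 21.4 ± 1.15 CPM in the knockouts and 20.5 ± 1.44 CPM in WT (SD, n = 3; 0.06, SE 0.08, not called). The noncoding RNA Kcnq1ot1, which silences genes in cis on the paternal chromosome, lies inside Kcnq1 on the opposite strand and rose from 7.97 ± 1.25 to 10.8 ± 0.922 CPM (SD, n = 3; 0.44, SE 0.12). Kcnq1 was too low to be tested, with 2, 2 and 6 counts in the knockouts and 11, 9 and 11 counts in WT. It is not known here whether counting used strand, so that reads of such overlapping pairs may have been assigned to either gene.

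Outside the 46 genes, Nap1l5, a paternally expressed retrogene inside Herc3, had 29, 24 and 21 counts in the knockouts and 2, 5 and 3 counts in WT. It reached the filter's level only in SRF KO, so that its call is no support for the grouping above. Herc3 was lower, at 15.5 ± 0.45 against 23.9 ± 1.15 CPM (SD, n = 3; -0.63, SE 0.07).

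The largest fall was that of Grb10, an adaptor protein that dampens insulin and growth factor signalling, at chr11:11930499-12037428. It is expressed from the maternal allele in most tissues and from the paternal allele in neurons. Grb10 had 65.6, 62.3 and 72.1 CPM in the knockouts and 304, 308 and 304 CPM in WT, so that WT held 4.58 times the SRF KO level (-2.20, SE 0.06). In WT it was among the most abundant members per length, at 60.3 ± 0.411 CPM per kb of its longest transcript (SD, n = 3), above 92.7% of tested genes. Its neighbour Ddc, which codes for the decarboxylase that makes dopamine and serotonin, moved the other way, with 12.3, 12.3 and 11.5 CPM in the knockouts and 6.43, 7.70 and 6.03 CPM in WT (0.84, SE 0.10). The ratio of Grb10 to Ddc counts thus was 45.9 ± 5.36 in WT and 5.56 ± 0.636 in SRF KO (SD, n = 3). The tested genes on either side of the locus, Fignl1 and Cobl, were lower by much less (-0.30, SE 0.06, and -0.21, SE 0.05).

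**Figure D2:**
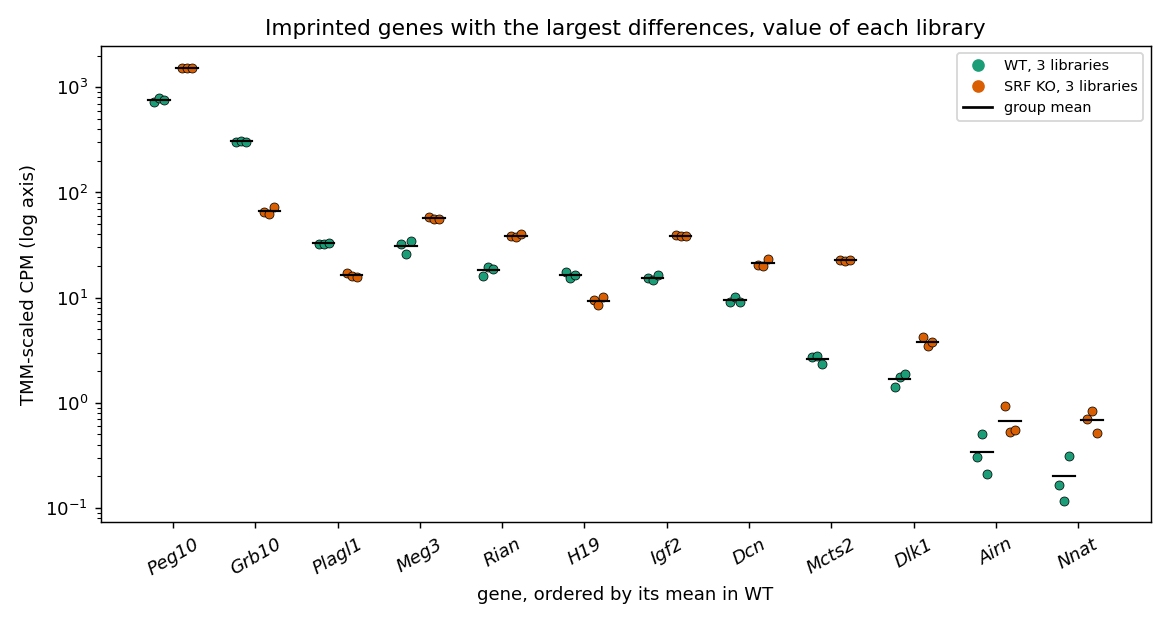
TMM-scaled CPM (log y axis) of each library for the members called with a log2 fold change of at least 1 either way, and for H19 and Meg3, ordered by their WT mean (x axis); points are libraries and lines are group means. The 3 SRF KO points of Mcts2 (22.4 to 22.9 CPM) lie above its WT points (2.34 to 2.76 CPM), and those of Grb10 and Plagl1 lie below theirs.

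H19 and Igf2 share a control region and enhancers on chromosome 7. H19 is a maternally expressed noncoding RNA (chr7:142575530-142578146), and Igf2 codes for a paternally expressed fetal growth factor (chr7:142650768-142666816). H19 had 9.40, 8.46 and 10.1 CPM in the knockouts and 17.6, 15.4 and 16.3 CPM in WT. Igf2 had 39.4, 38.2 and 38.5 CPM in the knockouts and 15.3, 14.8 and 16.3 CPM in WT. The genes moved in opposite directions without overlap, H19 by -0.82 (SE 0.09) and Igf2 by 1.32 (SE 0.07). The ratio of H19 to Igf2 counts was 1.15, 1.04 and 0.998 in WT and 0.239, 0.221 and 0.263 in SRF KO. Mrpl23, beside H19, was not called (-0.07, SE 0.08). Igf2 is also made by fibroblasts and extra-embryonic endoderm, whose markers were higher in SRF KO as given above, and their part in the difference was not tested.

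The Dlk1 and Meg3 locus on chromosome 12 holds a paternally expressed gene for a Notch-like membrane protein, Dlk1, and maternally expressed noncoding RNAs, of which Rian and Mirg host small nucleolar RNAs and microRNAs. This cluster is known to be silenced in some iPSC lines. Here all 4 members had positive fold changes and no overlap between the groups, whichever allele they are expressed from. Of all genes tested, 52.7% had no overlap. Dlk1 had 4.20, 3.44 and 3.80 CPM in the knockouts and 1.41, 1.75 and 1.88 CPM in WT (1.2, SE 0.16). Meg3 had 58.6, 55.4 and 56.1 CPM in the knockouts and 32.2, 26.1 and 34.5 CPM in WT (0.87, SE 0.09). Rian had 38.5, 37.4 and 40.6 CPM in the knockouts and 16.2, 19.7 and 18.8 CPM in WT (1.10, SE 0.08). Mirg, with 18, 16 and 15 counts in the knockouts and 7, 12 and 11 in WT, was not called (0.83, SE 0.34), except without WT replicate 2 (1.09). It reached the filter's level in 3 SRF KO libraries and 2 WT libraries. Meg3 and Rian were thus detected in every library. Fibroblast markers were present in both groups as well, as given above, and which cells the reads of this cluster came from was not tested. The ratio of Meg3 to Dlk1 counts, 15 ± 1.10 in the knockouts and 18.7 ± 4.0 in WT (SD, n = 3), overlapped between the groups, as did that of Rian to Meg3 (0.685 ± 0.0342 and 0.601 ± 0.136). The outer neighbours Begain and Dio3 were not called (-0.12, SE 0.16, and 0.30, SE 0.22).

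In the Kcnq1 domain, next to Igf2, the noncoding Kcnq1ot1 is known to silence maternally expressed genes on the paternal copy. Kcnq1ot1 rose, as given above, and those genes did not share a direction. Reads of both alleles are summed, so silencing on the paternal copy was not tested. Cdkn1c, a cell cycle inhibitor, had 20.7, 20.8 and 19.5 CPM in the knockouts and 18, 15 and 17.6 CPM in WT and was called higher (0.27, SE 0.08). Ascl2, a trophoblast transcription factor, was lower at 1.59 ± 0.0945 against 2.75 ± 0.274 CPM (SD, n = 3; -0.80, SE 0.15), as was the transporter gene Slc22a18 at 2.26 ± 0.334 against 3.06 ± 0.422 CPM (SD, n = 3; -0.44, SE 0.16). Phlda2, a gene that limits placental growth, was not called, at 30.6 ± 2.30 against 33.6 ± 4.66 CPM (SD, n = 3; -0.14, SE 0.10). Tssc4, a spliceosome factor gene, was not called either, at 19.1 ± 0.973 against 16.6 ± 2.75 CPM (SD, n = 3; 0.20, SE 0.11). Several of these calls turned on single libraries. Cdkn1c lost its call without knockout replicate 1 (0.25) or 2 (0.26), and Slc22a18 lost it without knockout replicate 2 (-0.45) or 3 (-0.33), without WT replicate 1 (-0.45) or 3 (-0.35) and under DESeq2 (-0.44). In turn, Phlda2 gained a call without WT replicate 2 (-0.23) and Tssc4 without WT replicate 3 (0.29). The ratio of Cdkn1c to Kcnq1ot1 counts overlapped between the groups, at 1.90 ± 0.13 in the knockouts and 2.17 ± 0.50 in WT (SD, n = 3). The summed level of 8 trophoblast markers was 72.9 to 77.3 CPM in the knockouts and 108 to 118 CPM in WT, and its part in the fall of Ascl2 was not tested. Of the 7 that passed the filter 0 were called higher and 2 lower, beside 21.2% and 21.3% of all genes. Those called lower were Tfap2c (33.1 ± 1.89 against 71.0 ± 5.33 CPM) and Krt7 (0.575 ± 0.140 against 3.11 ± 0.393 CPM, SD, n = 3). The other 5, among them Eomes (0.09, SE 0.08) and Cdx2 (-0.43, SE 0.33), were not called.

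Peg10, a retrotransposon-derived gene needed in the placenta, was the most abundant member. It had 1524, 1537 and 1539.8 CPM in the knockouts and 727, 783 and 756 CPM in WT (1.02, SE 0.05), and its WT level per length was above 96.6% of tested genes. Sgce, which codes for a sarcoglycan and shares the paternally active promoter region with Peg10, rose less, from 5.67 ± 0.379 to 8.14 ± 0.352 CPM (SD, n = 3; 0.52, SE 0.10). The count ratio of Peg10 to Sgce was 189 ± 7.32 in the knockouts and 134 ± 10.5 in WT (SD, n = 3), without overlap. The maternally expressed genes of the locus were scarcely expressed. Asb4, an ubiquitin ligase subunit gene, stood at 0.595 ± 0.0704 against 0.590 ± 0.165 CPM and was not called (SD, n = 3; 0.05, SE 0.28). Calcr, the calcitonin receptor gene, had 9, 12 and 16 counts in the knockouts and 8, 5 and 8 in WT and did not pass the filter. Beside the locus, Samd9l was called higher (0.43, SE 0.10) and Pdk4 lower (-0.62, SE 0.08).

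Igf2r, a maternally expressed receptor that carries IGF2 to the lysosome, differed little between the groups. It had 177, 167 and 172 CPM in the knockouts and 176, 179 and 178 CPM in WT and was not called (-0.05, SE 0.05). Airn, the paternally expressed antisense RNA that silences Igf2r in cis, had 25, 14 and 16 counts in the knockouts and 11, 13 and 6 in WT (1.0, SE 0.36). It reached the filter's level in all SRF KO libraries and in 1 WT library, and the annotated spans of the genes share 28396 bases. Its call was lost without knockout replicate 1 (0.70), knockout replicate 3 (1.13), WT replicate 1 (0.93) or WT replicate 3 (0.77), and under DESeq2 (1.0).

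**Figure D3:**
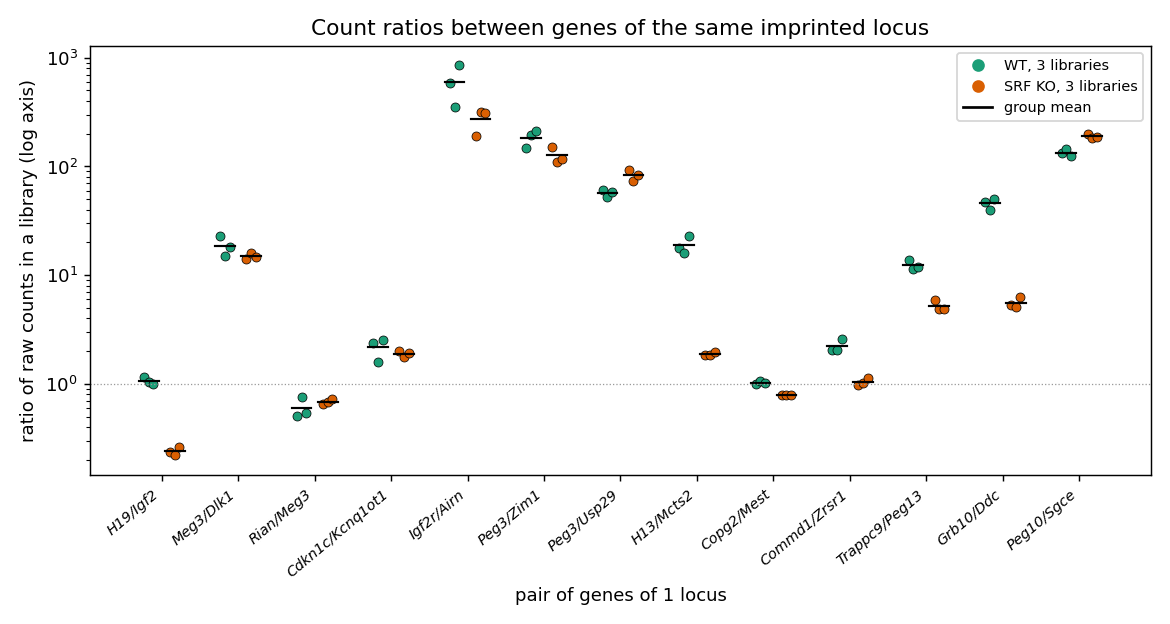
Ratio of raw counts between 2 genes of the same locus (log y axis) for 13 pairs (x axis) in each library; points are libraries, lines are group means and the dotted line marks a ratio of 1. The H13 to Mcts2 ratio falls from 15.9 to 23.0 in WT to 1.83 to 1.98 in SRF KO, while the Meg3 to Dlk1 and Cdkn1c to Kcnq1ot1 ratios overlap.

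Plagl1 codes for a paternally expressed zinc finger protein that restrains growth and is known to regulate other imprinted genes, among them Igf2, H19, Dlk1 and Cdkn1c. It had 17.1, 16.2 and 15.6 CPM in the knockouts and 32.7, 32.3 and 33.2 CPM in WT, without overlap (-1.01, SE 0.07). The flanking genes Sf3b5 and Ltv1 were not called (0.02, SE 0.11, and -0.08, SE 0.08). Of the genes named as targets of Plagl1, Igf2, Dlk1 and Cdkn1c were higher and H19 lower. The part of Plagl1 in these differences was not tested. Dcn codes for the matrix proteoglycan decorin, is abundant in fibroblasts and is known to be imprinted in the placenta. It had 20.4, 20.1 and 23.1 CPM in the knockouts and 9.0, 10.2 and 8.99 CPM in WT (1.18, SE 0.09). Its neighbour Lum, another fibroblast proteoglycan gene, was also called higher (1.31, SE 0.21). The 12 fibroblast markers, which include Lum, had log2 fold changes from 0.81 to 1.49 with a median of 1.16. The part of such cells in the rise of Dcn was not tested.

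Smaller differences were found in the Peg3, Mest and Snrpn loci. Peg3, a paternally expressed zinc finger gene, had 259.7, 276 and 266 CPM in the knockouts and 304, 325 and 308 CPM in WT (-0.22, SE 0.05). Usp29, transcribed from the same promoter region in the other direction, fell further, from 5.49 ± 0.639 to 3.26 ± 0.459 CPM (SD, n = 3; -0.74, SE 0.14). Zim1, the maternally expressed zinc finger gene beside them, had 1.71, 2.49 and 2.28 CPM in the knockouts and 2.07, 1.67 and 1.46 CPM in WT and was not called (0.30, SE 0.19). The count ratio of Peg3 to Zim1 overlapped between the groups (127 ± 22.2 in the knockouts and 184 ± 32.8 in WT), and that of Peg3 to Usp29 did not (82.9 ± 9.0 and 57.2 ± 4.42; SD, n = 3). Mest, which codes for a hydrolase-like protein of mesoderm, was not called, at 72.6 ± 2.15 against 77.5 ± 2.61 CPM (SD, n = 3; -0.10, SE 0.05). Copg2, a coat protein gene that overlaps the end of Mest on the opposite strand, was lower at 57.5 ± 1.66 against 79.5 ± 5.35 CPM (SD, n = 3; -0.47, SE 0.06).

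The Snrpn locus corresponds to the Prader-Willi and Angelman region of human chromosome 15. Of its 6 members, 1 was called higher, 1 lower and 4 neither. These are 16.7% each way, near the 21.2% higher and 21.3% lower of all genes. Snrpn, a splicing protein gene expressed from the paternal allele, stood at 61.6 ± 2.61 CPM in the knockouts and 62.7 ± 1.81 CPM in WT (SD, n = 3; -0.02, SE 0.05). The ubiquitin ligase gene Ube3a, maternally expressed in neurons, was also not called, at 118 ± 9.36 against 126 ± 14.9 CPM (SD, n = 3; -0.09, SE 0.08). Magel2, a ubiquitin ligase regulator gene, stood at 1.39 ± 0.238 against 1.14 ± 0.0914 CPM, and Mkrn3, a ubiquitin ligase gene, at 3.21 ± 0.436 against 3.53 ± 0.205 CPM (SD, n = 3). Neither was called (0.29, SE 0.19, and -0.14, SE 0.14). Ndn, the gene of the growth suppressor necdin, was called higher at 13.3 ± 0.330 against 11.2 ± 0.595 CPM (SD, n = 3; 0.25, SE 0.08). Peg12, a relative of the Frat genes of Wnt signalling, was called lower at 2.50 ± 0.181 against 3.34 ± 0.237 CPM (SD, n = 3; -0.41, SE 0.13). Both calls were lost under DESeq2 (0.26 and -0.41). They were also lost without knockout replicate 1 (0.24 and -0.42), knockout replicate 2 (0.24 and -0.35) or WT replicate 1 (0.26 and -0.45), and that of Peg12 without WT replicate 2 (-0.35).

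Of the remaining members, Impact, a translational regulator gene, was called lower (-0.22, SE 0.05), at 86.3 ± 2.15 CPM in the knockouts and 101 ± 4.25 CPM in WT (SD, n = 3). Gnas, whose row sums the transcripts of several promoters of opposite imprinting around the stimulatory G protein, was not called, at 262 ± 12.2 against 239 ± 11.1 CPM (SD, n = 3; 0.13, SE 0.05), but was without knockout replicate 2 (0.17) or WT replicate 3 (0.17). Inpp5f, a phosphoinositide phosphatase gene with 1 imprinted short isoform, was not called, at 16.7 ± 0.682 against 14.6 ± 0.978 CPM (SD, n = 3; 0.20, SE 0.08), except without WT replicate 2 (0.24). Sfmbt2, a Polycomb group gene imprinted in extra-embryonic tissue, was not called, at 44.6 ± 2.0 against 49.2 ± 1.78 CPM (SD, n = 3; -0.14, SE 0.06), although its groups did not overlap. Rasgrf1, a Ras activator gene of the brain, had 2, 1 and 0 counts in the knockouts and 0 in every WT library.

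Over the 43 tested members, the median SD of log2 CPM was 0.0659 in the knockouts and 0.0980 in WT, and the SD was larger in WT for 26 (60.5%), beside 66.0% of all genes tested.

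The proteins that set, keep or read imprints were examined from a list of 24 genes, all of which passed the filter. This list and those below were also drawn up with results of these libraries known, so their values are a description with no p-value. Of these, 2 were called higher and 8 lower, beside 21.2% and 21.3% of all genes. The median log2 fold change was -0.06, and without WT replicate 2 the number called higher was 6. In that fit 3652 of all genes were called higher, against 3132 in the main fit. Zfp57, the zinc finger protein that binds methylated imprint control regions, and its partner Trim28 were not called (0.03, SE 0.05, and 0.02, SE 0.06). Dppa3, which shields imprints from demethylation in the egg and early embryo, fell from 32.0 ± 2.26 to 7.56 ± 0.377 CPM (SD, n = 3; -2.08, SE 0.08). Among the DNA methyltransferase genes, Dnmt3a, a de novo enzyme, rose from 243 ± 0.942 to 447 ± 1.46 CPM (SD, n = 3; 0.88, SE 0.04). Its cofactor Dnmt3l fell from 287 ± 4.65 to 199 ± 3.89 CPM (SD, n = 3; -0.52, SE 0.05). Tet3, which oxidizes methylated cytosine, rose by 0.71 (SE 0.09). Besides Dppa3 and Dnmt3l, smaller falls were called for Dnmt1 (-0.24, SE 0.05), Uhrf1 (-0.21, SE 0.05) and Setdb1 (-0.12, SE 0.04). Smchd1 (-0.21, SE 0.07), Kdm1b (-0.41, SE 0.07) and Ezh2 (-0.32, SE 0.06) were also called lower. DNA methylation itself was not measured.

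A second list held 29 other genes reported as imprinted in at least 1 mouse tissue. Of the 20 that passed the filter, 9 were called higher (45%) and 3 lower (15%), beside 21.2% and 21.3% of all genes, and their median log2 fold change was 0.23. Besides Nap1l5, Tnfrsf23, a decoy receptor gene at the edge of the Kcnq1 domain, rose from 5.46 ± 0.788 to 11.2 ± 1.21 CPM (SD, n = 3; 1.05, SE 0.12). Pon2, a paraoxonase gene near Peg10, rose by 0.67 (SE 0.11). Atp10a, a lipid flippase gene next to Ube3a, fell from 16.8 ± 0.212 to 10.4 ± 0.840 CPM (SD, n = 3; -0.69, SE 0.08). In contrast, Slc38a4, a paternally expressed amino acid transporter gene at 238 ± 12.5 against 259.6 ± 4.34 CPM (SD, n = 3), and Blcap were not called.

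Lastly, the nearest tested protein-coding genes on either side of each locus were taken. Of these 39 neighbours, 6 were called higher (15.4%) and 15 lower (38.5%), beside 21.2% and 21.3% of all genes. Their median log2 fold change was -0.12, and some of them are imprinted in other tissues. Nap1l4, Cobl, Atp10a and Dio3 are also in the second list, and Lum is also a fibroblast marker, so the lists are not separate. Ctsh, a lysosomal protease gene beside Rasgrf1, rose most, from 3.43 ± 0.360 to 27.3 ± 1.83 CPM (SD, n = 3; 2.98, SE 0.10). Id1, a BMP-responsive regulator gene 27.6 kb from the H13 locus, rose from 10.4 ± 1.06 to 32.4 ± 1.46 CPM (SD, n = 3; 1.64, SE 0.08). Osbpl1a beside Impact fell by 0.58 (SE 0.07).

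**Figure D4:**
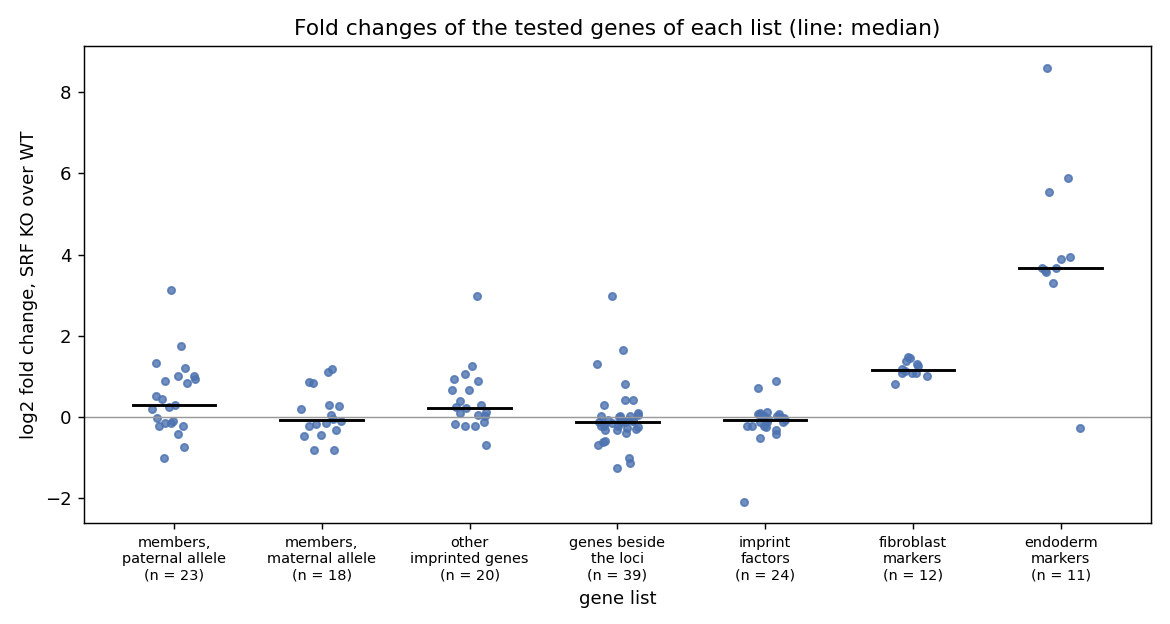
Log2 fold change of SRF KO over WT (y axis) for the tested genes of 7 lists (x axis); points are genes and lines are medians. The medians are 0.29 and -0.07 for members listed under the paternal and maternal allele, and 0.23 for other imprinted genes. They are -0.12 for genes beside the loci, -0.06 for imprint factors, 1.16 for fibroblast markers and 3.68 for endoderm markers. Some endoderm markers passed the filter only through SRF KO, and some genes are in more than 1 list.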

How the data were processed

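RNA of 3 SRF KO and 3 WT iPSC samples was read as 150 bp pairs, trimmed of adaptors and poor reads per the labels' protocols. What the submitters deposited is 1 table of raw counts per gene and per transposable element subfamily, a unit judged from its whole-number values. The submitters' processing notes name mm10 and DESeq2, with no role; the aligner, counter, annotation and strand setting are not given in the sources used here.

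Genes and subfamilies entered 1 model in R 4.3.3 with edgeR 4.0.16: filterByExpr (minimum count 10, or 0.364 CPM in 3 libraries), TMM, the quasi-likelihood test and Benjamini-Hochberg adjustment over all entries, called at 0.05. The code was tested on simulated data. Alternatives were RLE size factors, DESeq2 1.42.0, no filter, genes alone, replicate number as a term, stricter thresholds and leaving out each library. The limit of 3 counts covers counting error only. Per-length levels use the longest GENCODE M21 transcript; spans are from RefSeq and neighbours from GENCODE gene order, on GRCm38.

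The members and all lists (imprint factors, other imprinted genes, neighbours, 5 marker lists) were chosen with earlier results of these data known. By rule, called members with a log2 fold change of at least 1 and 6 gene pairs were given by library, and up to 4 called genes with the smallest p were named per list; Srf was also named. Ddc, Rian, Zrsr1 and Peg13 by library, and other genes outside the rule, were picked after their values were seen.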

Additional observations from a re-analysis of the deposited data

How the results depend on the processing

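Over 11 other fits, 22 of the 28 called members kept their direction and call; the exceptions were Cdkn1c, Slc22a18, Ndn, Peg12, Airn and Commd1. Leaving out each library in turn gave 14 to 18 members higher and 9 to 13 lower, with medians of 0.10 to 0.17. Calls over all genes moved too: 3652 higher and 3809 lower without WT replicate 2, against 3132 and 3141 in the main fit. WT replicate 2 lay farthest from its group, with a chi-square per degree of freedom of 12.9 and 15.5 against WT replicates 1 and 3. Between WT replicates 1 and 3 it was 3.8. For the imprint factors, leaving out each library gave 2 to 6 higher and 6 to 9 lower. Fold changes of 3 uncalled members changed sign or reached 0.00: Asb4 ranged from -0.11 to 0.27, Snrpn from -0.06 to 0.00 and Ube3a from -0.15 to 0.02. Requiring a log2 fold change of at least 1 left 8 members higher and 2 lower, 0 imprint factors higher and 1 lower, 3 other imprinted genes higher and 0 lower, and 3 neighbours higher and 3 lower, because fewer genes pass a stricter rule.

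With the replicate number as a block, 4 imprint factors were called higher and 5 other imprinted genes lower, and H13, Tssc4, Gnas, Inpp5f and Sfmbt2 passed as well. Over all genes this block gave 3659 higher and 3853 lower, against 3132 and 3141 without it. The numbers share no stated source: same-numbered samples correlated at 0.0574, 0.383 and 0.236, and knockout replicate 1 correlated best with WT replicate 3 (0.276). Depth limits Nnat, Airn, Mirg, Asb4, Calcr, Rasgrf1 and Kcnk9, which held at most 25 counts in a library. The cause of the other changes was not tested.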
